A study of Mus musculus with 42 samples.

Results

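VmSC4-derived VmSC5 were compared with VmSC4-derived VmSC4, the 2 sorted populations recovered from stromal cells that entered the transfer as VmSC4. The comparison rests on 6 of the 42 mouse libraries of the series, 3 of each population, picked by the names of their columns in the count table. VmSC4 and VmSC5 are the study's names for a pair of mesenchymal stromal populations of visceral adipose tissue (VAT). Every donor cell carried the genotype written Pparg-Tdt, which the labels do not explain, and received no treatment besides adoptive transfer into recipients written Kaeda. The stated question was whether VmSC4 and VmSC5 pass into each other. VmSC5-derived VmSC5 (n = 2), fresh VmSC5 (n = 3) and fresh VmSC4 (n = 3), all of the same genotype, gave the levels against which the transferred cells are set; fresh cells had no treatment. The labels do not give the surface markers of the sort, the time after transfer, the age or sex of the mice, the donors behind a library or whether recipients were pooled. A difference in a surface marker and a difference set by the sort itself therefore cannot be told apart, and p-values measure the spread between these libraries, which may be technical.

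Adipose tissue keeps a supply of new adipocytes in its stroma. In mouse fat, DPP4+ interstitial cells, which also carry Pi16 and lie in the connective tissue around the fat lobules, act as early progenitors, and ICAM1+ preadipocytes that stand closer to differentiation arise from them. The step to an adipocyte is driven by PPARγ, which switches on Fabp4, Plin1 and Adipoq, while the progenitors are marked by matrix, elastic fibre and guidance genes.

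The 6 libraries held 1967123 to 5044946 counts. VmSC4-derived VmSC5 had 3785455 to 4952043, and VmSC4-derived VmSC4 had 1967123 in replicate 2, the shallowest, and 3964926 and 5044946 in the others. All 3 pairs of replicates within each population differed by more than sampling noise, so no library was a copy of another. All were counted as separate samples, though such a check cannot tell technical from biological replicates. Stromal transcripts filled both populations, with Pdgfra, Ly6a and Cd34 each above 1000 counts, and above 690 CPM (counts scaled to the library total, here and below), in all 6 libraries. Markers of other cells were at or near 0 for the defining genes. Over 3 libraries, Ptprc had 6 counts in VmSC4-derived VmSC5 and 6 in VmSC4-derived VmSC4, Cdh5 had 4 and 8, Epcam had 1 and 0, and the adipocyte hormone gene Adipoq had 0 and 4. The summed level of 11 endothelial markers ran from 138 to 156 CPM in VmSC4-derived VmSC5 and from 79.3 to 124 in VmSC4-derived VmSC4. Tek, which encodes the angiopoietin receptor, made up most of it (119, 122 and 136 against 90.8, 78.3 and 59.9 CPM). Tek was itself called higher (log2 fold change 0.81 ± 0.15, edgeR adjusted p = 0.00479, called in 14 of 15 alternatives), and its part in the results was not tested. The sum of 11 mesothelial markers was 79.7 to 91.1 against 102 to 123 CPM, nearly all of it from Wt1, with 1120 and 1192 counts in all, while Msln, Krt8 and Krt18 had 0. The sum of 9 pericyte and smooth muscle markers was 148 to 161 against 174 to 191 CPM, and that of 12 macrophage markers 11.4 to 13.3 against 10.1 to 14.4 CPM. Of 8 B and plasma cell markers, summing to 105 to 215 against 236 to 276 CPM, Xbp1 held nearly all counts and Cd79b none.

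Among genes of at least 20 CPM, the largest rises in VmSC4-derived VmSC5 over VmSC4-derived VmSC4 included Thy1, Igfbp5, Efhd1, Ackr3 and Mest, and the largest falls included Naaladl2 and Cmklr1. Of 13947 genes tested, 104 (0.746%) were called higher and 143 (1.03%) lower in VmSC4-derived VmSC5, together 1.77%, by edgeR's quasi-likelihood test at a Benjamini-Hochberg adjusted p under 0.05. Of these, 26 rose and 53 fell more than 2-fold. The median log2 fold change over all tested genes was 0.045. Libraries of the 2 populations did not overlap in CPM for 9.80% of tested genes in the upward and 14.4% in the downward direction. The count of calls fell when a library was left out, which also lowers the power of the test. A lost call therefore does not by itself show that a gene rested on that library. The count was 39 (25 higher, 14 lower) without VmSC4-derived VmSC4 replicate 2, and 119 without replicate 3. Leaving out replicate 2 of VmSC4-derived VmSC5 left 59 calls, and leaving out its replicate 3 left 49. Among the genes chosen by rule, 15 of 33 that rose and 7 of 33 that fell passed in all 6 fits that leave out a library. Without VmSC4-derived VmSC4 replicate 2 the named falls that passed were Cmklr1, Plau, Slit2, Thsd7a, Naaladl2, Nr2c2 and the unprocessed pseudogene CT010467.2, whose reads may come from a near copy. The rises that passed without it were Thy1, Dpp4, Ackr3, Efhd1, Sema3c, Cd55, Anxa3, Smpd3, Ackr2, Igfbp5, Mest, Aif1l, Mgll, Galnt16, Vtn and Emilin2. Every other rise or fall chosen by rule and described here lost its call without that library.

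**Figure D1:**
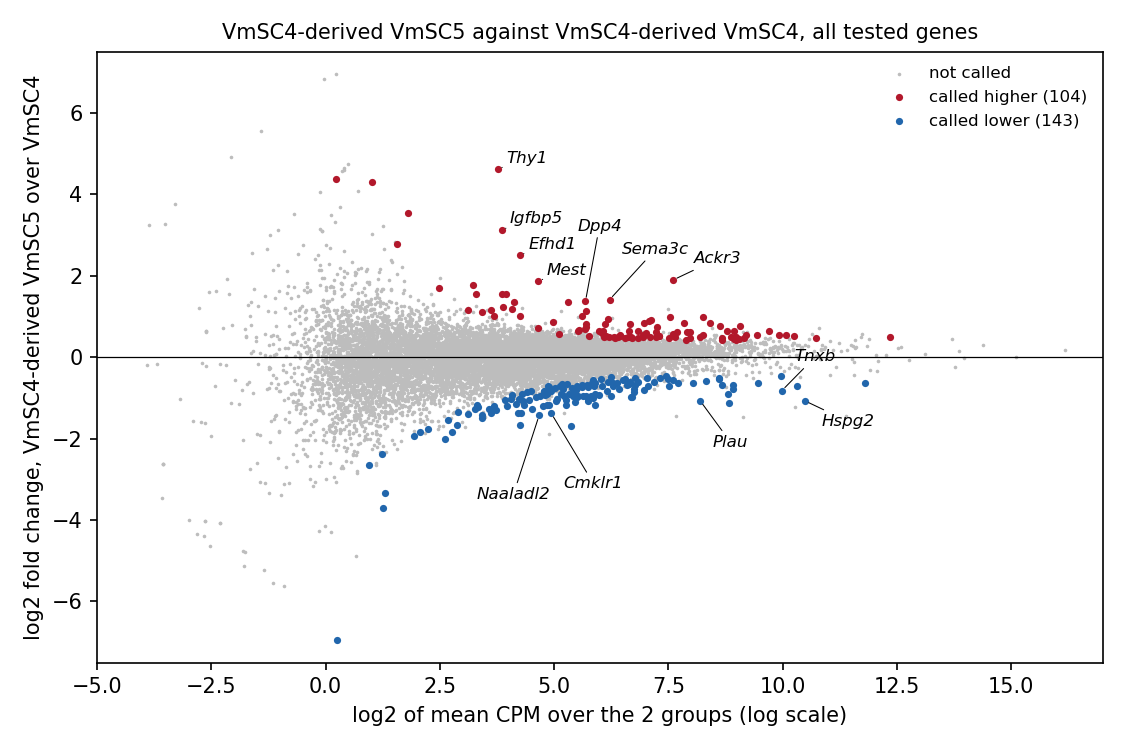
Level and difference of 13935 tested genes. The horizontal axis is log2 of the mean CPM over both populations and the vertical axis the log2 fold change of VmSC4-derived VmSC5 over VmSC4-derived VmSC4. Red points are the 104 genes called higher and blue points the 143 called lower; 12 uncalled genes under 0.05 CPM are not drawn. Thy1, at 4.62, stands highest among the labelled genes, and Hspg2 and Tnxb are labelled falls at high levels.

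Of 22 tested members of a list of DPP4+ interstitial progenitor genes, 9 rose and 0 fell, where 0.746% of all tested genes rose, and the list median was 0.80 against 0.045 over all tested genes. The log2 fold change was positive for 20 of the 22, where 54.96% of all tested genes were higher after transfer. The summed level of the list overlapped between populations, at 12731 to 13198 CPM in VmSC4-derived VmSC5 and 11494 to 13421 CPM in VmSC4-derived VmSC4. The same 22 genes gave 15 higher and 3 lower with a median of 0.79 between fresh VmSC5 and fresh VmSC4. Of all tested genes, 7.41% were higher there and 11.0% lower. The list was drawn up with earlier results of these data known. Leaving out any 1 of the 6 libraries left 7 of them called.

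Upstream sequences of 3 of the risen progenitor genes are shown because they rose together and their start sites are annotated. Each line gives the 250 bases before the start in RefSeq, build GRCm38.p6, 5′ to 3′ on the strand of the gene, for Ackr3 (chr1:90203730-90203979, plus strand), Efhd1 (chr1:87264103-87264352, plus strand) and Dpp4 (chr2:62412232-62412481, minus strand). No annotated exon overlaps them, and Thy1 was looked up with them. Capitals mark matches, on either strand, to the GC box letters GGGCGG, the CAAT box letters CCAAT, the TATA box letters TATAAA or the AP-1 letters TGANTCA.
Ackr3: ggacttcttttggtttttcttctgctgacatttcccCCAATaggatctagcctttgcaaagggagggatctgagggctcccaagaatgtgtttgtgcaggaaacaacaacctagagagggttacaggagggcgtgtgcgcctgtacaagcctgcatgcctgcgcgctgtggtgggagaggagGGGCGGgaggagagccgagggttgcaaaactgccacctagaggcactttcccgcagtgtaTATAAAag
Efhd1: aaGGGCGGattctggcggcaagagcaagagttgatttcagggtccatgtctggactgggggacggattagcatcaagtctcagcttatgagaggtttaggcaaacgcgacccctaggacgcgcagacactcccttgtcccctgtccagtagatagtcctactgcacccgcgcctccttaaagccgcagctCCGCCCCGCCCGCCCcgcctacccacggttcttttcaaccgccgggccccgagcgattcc
Dpp4: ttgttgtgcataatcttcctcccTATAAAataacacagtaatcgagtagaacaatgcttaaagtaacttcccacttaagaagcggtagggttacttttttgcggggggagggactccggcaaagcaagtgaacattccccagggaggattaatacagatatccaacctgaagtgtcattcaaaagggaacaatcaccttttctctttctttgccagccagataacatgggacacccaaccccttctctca
Ackr3 had 1 GGGCGG, 1 CCAAT and 1 TATAAA match, Efhd1 had 4 GGGCGG matches, of which the 3 on the opposite strand overlap one another in a row, and Dpp4 had 1 TATAAA match. No motif was common to all 3. Among 32851 RefSeq promoter windows of the same length, 32.7% held the GC box letters, 33.8% the CAAT box, 12.4% the TATA box and 6.75% the AP-1 letters.

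Thy1 (chr9:44043384-44048579), which encodes the surface glycoprotein CD90 of stromal cells, was high in the VmSC5 populations and near 0 in the VmSC4 ones. Its level was 30.1, 21.3 and 27.1 CPM in VmSC4-derived VmSC5, against 1.01, 1.53 and 0.991 CPM in VmSC4-derived VmSC4, from 114, 103 and 134 counts and 4, 3 and 5 counts. The groups stand far apart, and the log2 fold change was 4.62 ± 0.31 (SE, edgeR adjusted p = 6.2e-10). VmSC5-derived VmSC5 had 49.3 and 38.5 CPM, above every VmSC4-derived VmSC5 library. Fresh VmSC5 had 48.1, 49.1 and 57.1 CPM against 1.04, 0.715 and 0.685 CPM in fresh VmSC4, a log2 fold change of 6.03 ± 0.25 (edgeR adjusted p = 6.82e-15). The transferred difference minus the fresh one was -1.42 ± 0.52 and did not pass (edgeR adjusted p = 0.0882).

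Dpp4 (chr2:62330073-62412231), the surface peptidase that names the progenitors, was at 77.9, 65.8 and 75.3 CPM in VmSC4-derived VmSC5 against 34.3, 29.0 and 26.4 CPM in VmSC4-derived VmSC4 (log2 fold change 1.37 ± 0.18, edgeR adjusted p = 0.000109). VmSC5-derived VmSC5 were higher still, at 134 and 99.3 CPM. Fresh VmSC5 had 16.7, 16.3 and 18.4 CPM and fresh VmSC4 1.76, 1.70 and 2.83 CPM, so both fresh populations lay below every transferred library. The transferred difference was smaller than the fresh one by 1.74 on the log2 scale (difference -1.74 ± 0.28, edgeR adjusted p = 0.000398). It was called in all 18 alternatives run for it.

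Ackr3 (chr1:90203980-90216751), a scavenging receptor that takes up the chemokine CXCL12, was at 296, 296 and 318 CPM against 95.3, 86.4 and 77.7 CPM (log2 fold change 1.89 ± 0.15, edgeR adjusted p = 4.44e-08). In fresh cells Ackr3 was at 235, 216 and 228 CPM in VmSC5 against 83.2, 47.0 and 59.8 CPM in VmSC4 (1.93 ± 0.15, edgeR adjusted p = 5.49e-09). The sizes of the transferred and the fresh difference were within 0.03 ± 0.21 of each other on the log2 scale (edgeR adjusted p = 0.954). VmSC5-derived VmSC5, at 739 and 604 CPM, were above every library of the other 4 groups. Efhd1 (chr1:87264363-87310839), a mitochondrial calcium-binding protein, also rose: 29.6, 32.2 and 35.3 CPM in VmSC4-derived VmSC5 against 5.55, 3.56 and 7.73 CPM in VmSC4-derived VmSC4 (2.5 ± 0.29, edgeR adjusted p = 1.91e-05). Its fresh difference was 1.90 ± 0.26, with 12.1, 19.8 and 13.0 CPM against 4.47, 3.84 and 4.45 CPM.

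Sema3c (chr5:17574281-17730268), a secreted semaphorin that guides migrating cells, separated the transferred groups and not the fresh ones. It was at 114, 108 and 96.7 CPM in VmSC4-derived VmSC5 against 48.4, 43.7 and 35.1 CPM in VmSC4-derived VmSC4 (log2 fold change 1.41 ± 0.17, edgeR adjusted p = 2.85e-05). Fresh VmSC5 had 37.8, 37.1 and 26 CPM and fresh VmSC4 43.5, 35.6 and 27.7 CPM, and these overlap. The transferred difference was larger by 1.40 ± 0.23 (edgeR adjusted p = 0.000503). VmSC5-derived VmSC5 held the highest levels, 184 and 204 CPM.

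The other called progenitor genes rose by less. Cd55, a surface brake on complement, was at 237, 229 and 253 against 152, 112 and 123 CPM (0.97 ± 0.14). Anxa3, a membrane-binding annexin, was at 167, 171 and 178 against 107, 92.0 and 94.0 CPM (0.89 ± 0.13). Smpd3, a neutral sphingomyelinase, was at 77.1, 104 and 100 against 56.7, 51.3 and 48.8 CPM (0.92 ± 0.14). None of the 3 overlapped between populations, as was so for 9.80% of all tested genes in the upward direction. Their edgeR adjusted p lay between 0.000253 and 0.000315, and each passed without any 1 library. Creb5, a transcription factor of the CREB family, and Mfap5, a microfibril glycoprotein, passed narrowly (0.50 ± 0.13 and 0.46 ± 0.12, edgeR adjusted p = 0.0477 and 0.0439) and in none of the fits that leave out a library. Pi16, a secreted protease inhibitor family member and the other namesake of the progenitors, was at 397, 492 and 386 CPM against 282, 288 and 260 CPM and did not pass (0.70 ± 0.21, edgeR adjusted p = 0.112). It passed in 5 of 15 alternatives. Its fresh difference was 1.82 ± 0.22, and the transferred minus the fresh difference was -1.11 ± 0.30 (edgeR adjusted p = 0.0330), a call that 8 of 18 alternatives kept.

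**Figure D2:**
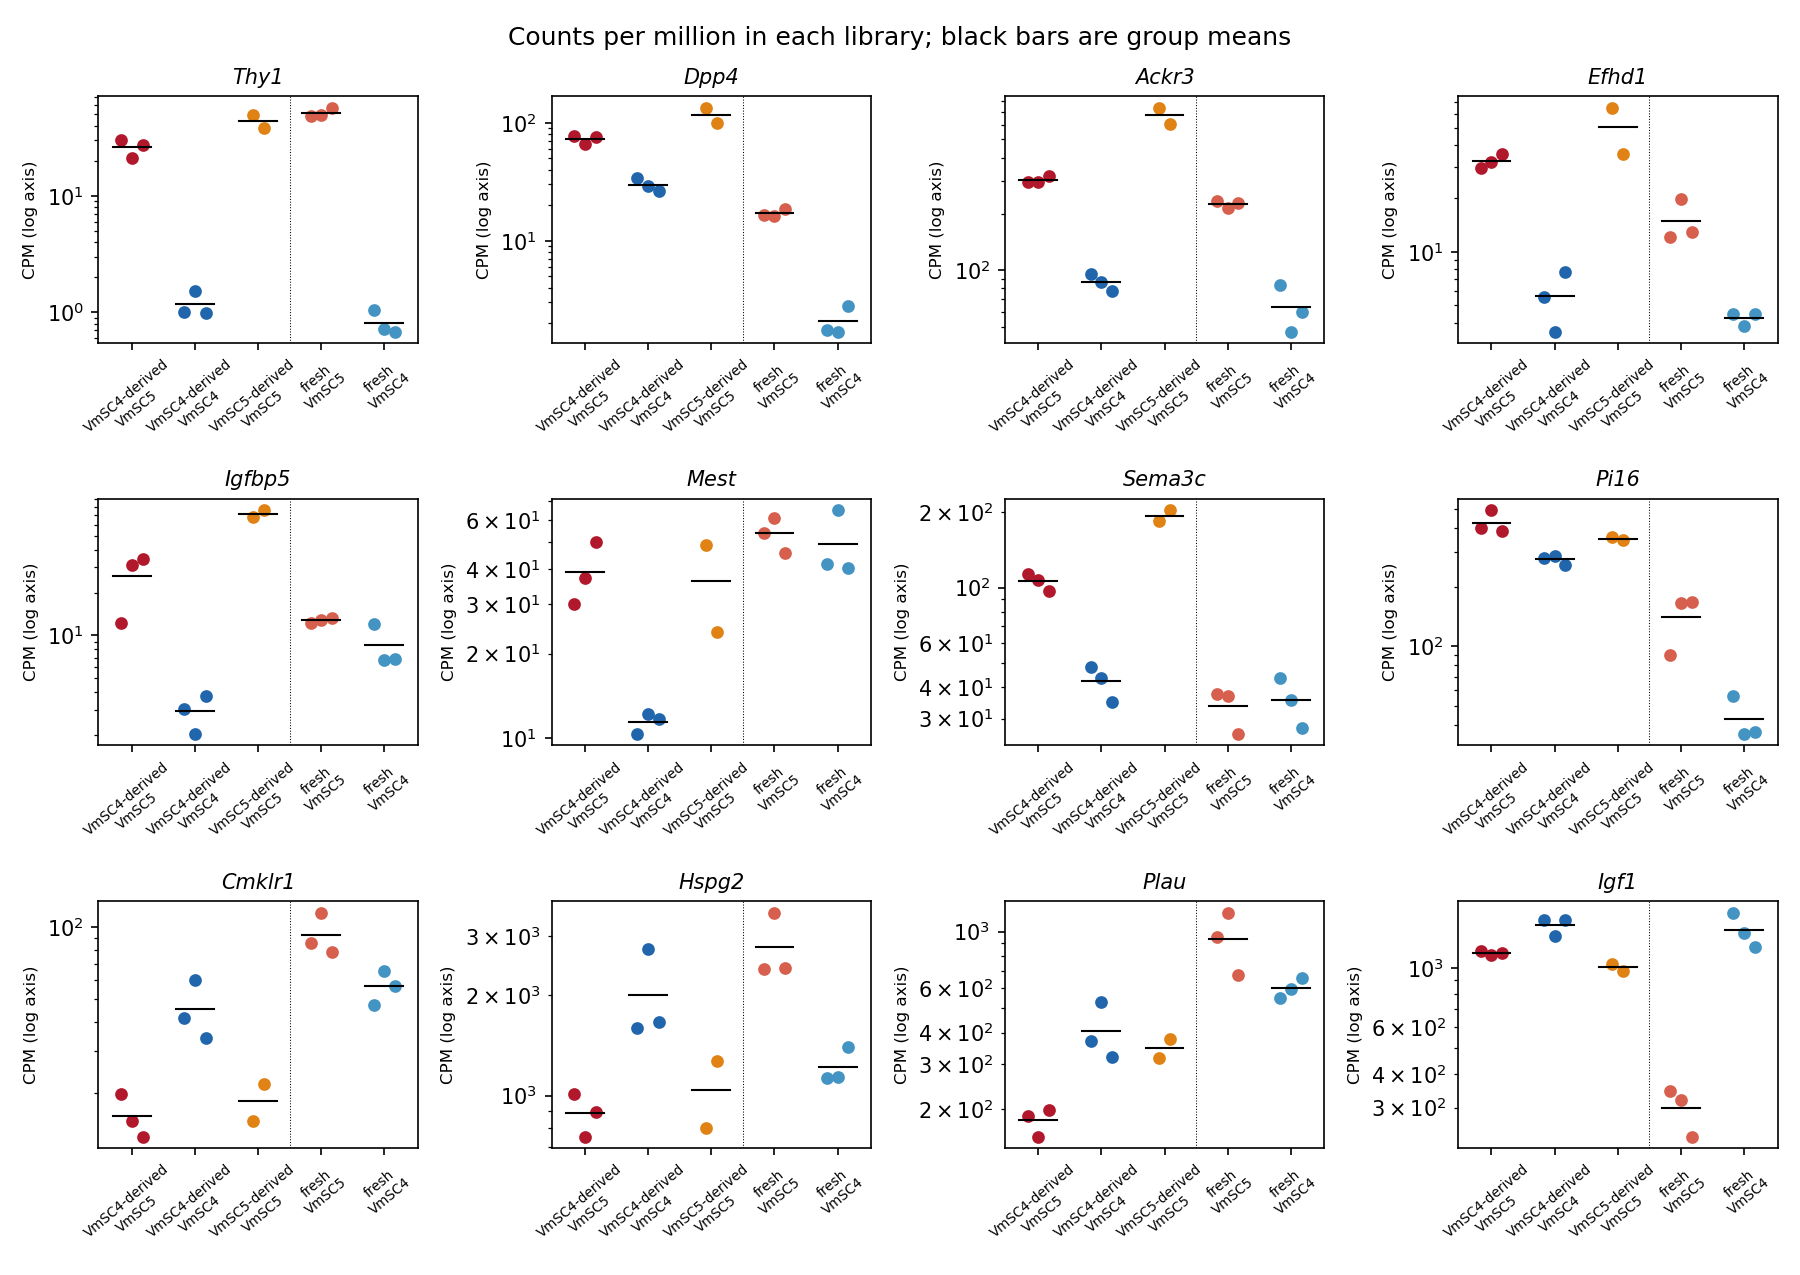
CPM of 12 genes in every library, on log axes, for VmSC4-derived VmSC5, VmSC4-derived VmSC4, VmSC5-derived VmSC5, fresh VmSC5 and fresh VmSC4. Points are libraries, black bars group means, and a dotted line parts transferred from fresh cells. Thy1 separates all VmSC5 from all VmSC4 groups, Sema3c separates the transferred groups only, and Cmklr1, Hspg2 and Plau are lower in VmSC4-derived VmSC5 but higher in fresh VmSC5 than in the VmSC4 group beside them.

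Among 15 stromal identity genes edgeR called 1 and DESeq2 called 2 higher and 2 lower, where edgeR called 1.77% of all tested genes. In edgeR 7 had an unadjusted p under 0.05, as had 2262 of all 13947 tested genes. Cd34, a sialomucin of stromal progenitors, was the gene called by edgeR: 1356, 1310 and 1490 CPM in VmSC4-derived VmSC5 against 1094, 933 and 1065 CPM in VmSC4-derived VmSC4 (log2 fold change 0.51 ± 0.12, edgeR adjusted p = 0.0318), a call lost without any 1 of the 6 libraries. Pdgfra, the growth factor receptor that marks these cells, was at 692, 777 and 704 against 921, 1080 and 1003 CPM and missed the threshold (-0.38 ± 0.11, edgeR adjusted p = 0.0636), though it was called lower in 7 of 15 alternatives, DESeq2 among them. Between fresh VmSC5 and fresh VmSC4 it went the other way, at 820, 804 and 745 against 541, 595 and 598 CPM, and the difference between the differences was called (-0.92 ± 0.15, edgeR adjusted p = 0.000480). Ly6a, which encodes SCA-1, was at 1386, 1369 and 1459 against 1273, 1143 and 1212 CPM (0.30 ± 0.11, edgeR adjusted p = 0.176).

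None of 19 tested adipocyte program genes was called, by edgeR or by DESeq2, where edgeR called 1.77% of all tested genes. In edgeR 2 had an unadjusted p under 0.05, as had 2262 of all 13947 tested genes, and the list median was -0.12. Pparg was at 5.81, 3.30 and 5.25 CPM in VmSC4-derived VmSC5 against 9.08, 6.10 and 3.96 CPM in VmSC4-derived VmSC4, from 16 to 26 and 12 to 36 counts, so that only a large difference could have been detected. Fabp4, the fatty acid binding protein of adipocytes, was at 25.1, 17.3 and 27.9 against 38.8, 18.8 and 16.3 CPM, and the groups overlap (log2 fold change -0.01 ± 0.33, edgeR adjusted p = 0.991). Of 20 tested genes of committed preadipocytes, 0 rose and 3 fell, where 1.03% of all tested genes fell, and the list median was -0.015. Col15a1, a basement membrane collagen, was at 306, 275 and 309 against 443, 787 and 557 CPM (-0.91 ± 0.19, edgeR adjusted p = 0.0214). Aoc3, a surface amine oxidase of fat, was at 66.3, 51.6 and 80.2 against 113, 194 and 118 CPM (-0.99 ± 0.24, edgeR adjusted p = 0.0483). Hsd11b1, which makes active glucocorticoid in fat, was at 51.5, 59.4 and 59.2 against 101, 104 and 93.4 CPM (-0.72 ± 0.18, edgeR adjusted p = 0.0426). All 3 had non-overlapping libraries, as had 14.4% of all tested genes in the downward direction. None passed without VmSC4-derived VmSC4 replicate 2 (edgeR adjusted p = 0.113, 0.182 and 0.180). Over the 6 fits that leave out a library, Col15a1 and Aoc3 were each called in 1 and Hsd11b1 in 0. Icam1, the namesake of the committed cells, was at 220, 245 and 258 against 192, 221 and 216 CPM and did not pass (0.29 ± 0.13, edgeR adjusted p = 0.275). In the insulin pathway Irs1, the substrate that carries the signal of the insulin receptor, fell (23.8, 21.7 and 21.4 against 49.7, 68.6 and 43.6 CPM, -1.17 ± 0.25, edgeR adjusted p = 0.0205), and so did Acacb, a mitochondrial acetyl-CoA carboxylase (6.08, 13.2 and 7.88 against 18.9, 20.3 and 27.2 CPM, -1.21 ± 0.28, edgeR adjusted p = 0.0253). Both were named for the size of their fall and not as members of a list.

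Secreted signals and their receptors held several of the largest changes. Igfbp5 (chr1:72857932-72874884), which binds insulin-like growth factors outside the cell, was at 12.2, 31.4 and 34.3 CPM in VmSC4-derived VmSC5 against 3.03, 2.03 and 3.77 CPM in VmSC4-derived VmSC4 (log2 fold change 3.13 ± 0.38, edgeR adjusted p = 0.000109). The lowest VmSC4-derived VmSC5 library, replicate 1, still lay above every VmSC4-derived VmSC4 library, and VmSC5-derived VmSC5 had 67.4 and 75.7 CPM. Fresh VmSC5 and fresh VmSC4 were at 12.3, 12.9 and 13.4 against 12.1, 6.70 and 6.85 CPM, and the transferred difference was larger by 2.46 ± 0.49 (edgeR adjusted p = 0.00336). It was the 1 call among 12 tested insulin-like growth factor genes, where 1.77% of all tested genes were called. Igf1 itself was at 1164, 1118 and 1135 against 1521, 1318 and 1522 CPM (-0.27 ± 0.13, edgeR adjusted p = 0.292), where fresh VmSC5 had 346, 319 and 233 CPM and fresh VmSC4 1614, 1351 and 1203 CPM.

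Mest (chr6:30723547-30748465), an imprinted gene tied to growing fat tissue, was at 30.1, 37.2 and 49.9 against 10.3, 12.2 and 11.7 CPM (log2 fold change 1.87 ± 0.28, edgeR adjusted p = 0.000705). It was the 1 call among 13 tested imprinted growth genes, where 1.77% of all tested genes were called. Its fresh levels were 54.0, 61.0 and 45.9 CPM in VmSC5 and 41.9, 64.9 and 40.2 CPM in VmSC4, all of them above VmSC4-derived VmSC4, and the transferred difference was larger by 1.65 ± 0.35 (edgeR adjusted p = 0.00635). Rspo3, a secreted amplifier of WNT signals, was at 10.6, 13.4 and 11.5 against 7.31, 4.07 and 4.96 CPM (1.15 ± 0.29, edgeR adjusted p = 0.0374). Fresh VmSC5 were lower than fresh VmSC4 in Rspo3, at 20.4, 18.9 and 13.5 against 42.5, 56.7 and 35.0 CPM, so the differences had opposite signs (2.41 ± 0.36 apart, edgeR adjusted p = 0.000201). Without VmSC4-derived VmSC4 replicate 2 the transferred rise of Rspo3 did not pass (edgeR adjusted p = 0.186). It was called in 1 of the 6 fits that leave out a library.

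Of 21 tested chemokine and chemokine receptor genes 3 rose and 1 fell, where 0.746% of all tested genes rose and 1.03% fell. Besides Ackr3, the rises were Ackr2, a decoy receptor that clears inflammatory chemokines (66.0, 68.7 and 76.1 against 41.9, 32 and 27.8 CPM, 1.13 ± 0.17, edgeR adjusted p = 0.000315), and Ccl11, the eosinophil attractant eotaxin (245, 332 and 315 against 233, 179 and 197 CPM, 0.63 ± 0.16, edgeR adjusted p = 0.0426). The fall was Cmklr1 (chr5:113612354-113650426), the receptor of the adipokine chemerin, at 19.8, 15.3 and 13.1 against 41.4, 60.0 and 34.3 CPM (-1.38 ± 0.22, edgeR adjusted p = 0.000885), a call kept without any 1 library. In fresh cells Cmklr1 was higher in VmSC5, at 85.6, 115 and 78.6 CPM, than in VmSC4, at 46.9, 65.3 and 56.7 CPM (0.82 ± 0.18, edgeR adjusted p = 0.00284). The differences lay -2.20 ± 0.29 apart (edgeR adjusted p = 5.18e-05). Cxcl12, the ligand of ACKR3, was at 811, 830 and 908 against 733, 695 and 712 CPM and was not called (0.33 ± 0.11, edgeR adjusted p = 0.128). Of axon guidance genes, 24 tested, Sema3c was counted above and Thy1 rose, while Slit2, a repellent ligand, fell (44.9, 39.2 and 34.9 against 75.7, 93.0 and 71.0 CPM, -0.92 ± 0.16, edgeR adjusted p = 0.00303), as did Sema5a (60.2, 55.3 and 66.2 against 103, 125 and 105 CPM, -0.78 ± 0.17, edgeR adjusted p = 0.0146). In the TGF-β list, 1 of 27 rose, Fstl1 (0.49 ± 0.11), and 1 fell, the co-receptor Tgfbr3 (-0.69 ± 0.14; edgeR adjusted p = 0.0234 and 0.00784).

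Elastic fibre genes gave 4 rises and 0 falls among 16 tested, where 0.746% of all tested genes rose. Without VmSC4-derived VmSC4 replicate 2 only Emilin2 was called. Emilin2, a glycoprotein of elastic tissue, was at 308, 280 and 277 CPM in VmSC4-derived VmSC5 against 160, 173 and 177 CPM in VmSC4-derived VmSC4 (log2 fold change 0.84 ± 0.12, edgeR adjusted p = 0.000299). The fibulins Efemp1 and Efemp2 and the microfibril gene Mfap5 rose by 0.42 to 0.54, calls that leaving out a library ended. Elastin itself, Eln, was at 908, 809 and 434 against 1795, 1854 and 1650 CPM and did not pass (-1.22 ± 0.30, edgeR adjusted p = 0.0725). It was called lower by DESeq2 (adjusted p = 0.00349) and with the 2 groups alone and a replicate block (edgeR adjusted p = 0.0305).

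Of 25 tested collagens 0 rose and 4 fell, where 1.03% of all tested genes fell: Col15a1 above, and the type IV chains Col4a3 (10.3, 8.26 and 4.44 against 17.9, 17.8 and 18.6 CPM), Col4a5 (161, 159 and 134 against 226, 234 and 247 CPM) and Col4a6 (25.4, 23.3 and 31.9 against 48.4, 59.5 and 73.3 CPM). Their log2 fold changes were -1.19 ± 0.25, -0.56 ± 0.15 and -1.09 ± 0.25 (edgeR adjusted p = 0.0135, 0.0461 and 0.0375). Of the main chains, Col4a1 was at 596, 622 and 609 against 613, 666 and 632 CPM, and Col1a1 and Col3a1 were not called either. Without VmSC4-derived VmSC4 replicate 2 no collagen was called, and with the correction for transcript length Col4a5 and Col4a6 were not (-0.39 and -0.91, edgeR adjusted p = 0.199 and 0.120). Over the 6 fits that leave out a library, Col4a3 was called in 3, Col4a6 in 1 and Col4a5 in 0. Hspg2 (chr4:137468769-137570630), the basement membrane proteoglycan perlecan, was at 1009, 754 and 893 against 1586, 2737 and 1655 CPM (-1.08 ± 0.22, edgeR adjusted p = 0.0306), and was called in 5 of 15 alternatives. Its fresh levels ran the other way, 2393, 3515 and 2408 CPM in VmSC5 against 1127, 1134 and 1394 CPM in VmSC4, and the differences lay -2.35 ± 0.32 apart (edgeR adjusted p = 0.000677). Tnxb, the matrix protein tenascin X, was alike in this, at 794, 709 and 601 against 1039, 1897 and 1040 CPM after transfer (-0.82 ± 0.19, edgeR adjusted p = 0.0439) and at 1497, 1953 and 1809 against 730, 890 and 860 CPM in fresh cells. VmSC4-derived VmSC4 replicate 2 was the highest library for Hspg2, Tnxb and Col15a1. Without it the log2 fold changes of Hspg2 and Tnxb were -0.82 and -0.51, short of the threshold (edgeR adjusted p = 0.109 and 0.160). Corrected for transcript length they were -0.67 and -0.49 (edgeR adjusted p = 0.0640 and 0.0841), and with the 2 groups fitted alone neither passed (edgeR adjusted p = 0.0961 and 0.205). Hspg2 and Tnxb were each called in 2 of the 6 fits that leave out a library.

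Enzymes and remaining matrix genes were called in small numbers, where 0.746% of all tested genes rose and 1.03% fell. Plau (chr14:20836660-20843385), the urokinase that activates plasmin, was at 187, 156 and 199 against 371, 528 and 321 CPM (-1.08 ± 0.18, edgeR adjusted p = 0.00419), and passed without any 1 library. Plat, the tissue activator of the same protease, went the other way, at 567, 547 and 615 against 443, 420 and 443 CPM (0.49 ± 0.11, edgeR adjusted p = 0.0215). In fresh cells Plau was higher in VmSC5 (949, 1187 and 677 CPM) than in VmSC4 (548, 592 and 656 CPM), and the differences lay -1.81 ± 0.25 apart (edgeR adjusted p = 0.000290). Adamts5 and Pcolce2 rose by 0.48 and 0.47, which made 3 rises and 1 fall among 30 tested matrix proteases, inhibitors and lysyl oxidases. Has1, a hyaluronan synthase, was at 118, 129 and 109 against 83.7, 77.8 and 78.5 CPM (0.65 ± 0.13, edgeR adjusted p = 0.00990), and Vcan, which binds hyaluronan, fell by 0.51 (edgeR adjusted p = 0.0456), so that 1 of 23 proteoglycan and hyaluronan genes rose and 2 fell. Thbs3 and Ccn3 rose and Tnxb fell among 20 matricellular genes. Among 19 complement genes, Cd55 rose and C7, a component of the membrane attack complex, fell (301, 279 and 241 against 539, 772 and 600 CPM, -1.13 ± 0.23, edgeR adjusted p = 0.0306).

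**Figure D3:**
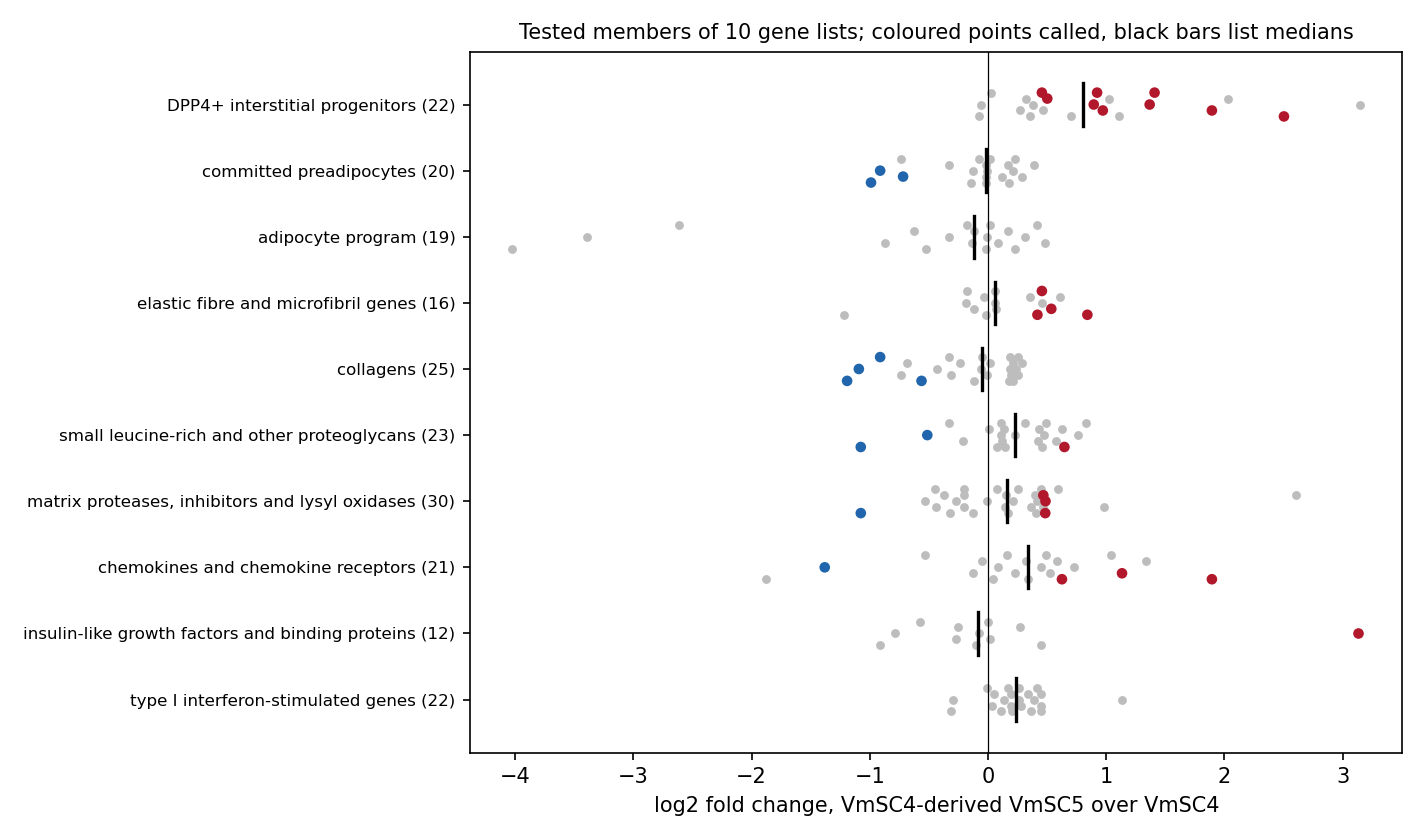
Log2 fold change of VmSC4-derived VmSC5 over VmSC4-derived VmSC4 for every tested member of 10 gene lists, with the number tested in brackets. Red points were called higher, blue points called lower, grey points not called, and black bars are list medians. The progenitor list lies to the right with 9 red points and a median of 0.80, and the adipocyte and interferon lists hold no coloured point.

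Further large changes fell outside the lists. The rises were Aif1l, an actin-binding protein (20.3, 23.1 and 20.8 against 5.55, 7.63 and 9.71 CPM, log2 fold change 1.55 ± 0.29), Mgll, which splits monoglycerides (25.4, 21.3 and 20.6 against 10.6, 10.2 and 4.36 CPM, 1.56 ± 0.30), Serpinb1a, an elastase inhibitor (1.36 ± 0.29), Pcsk6, a proprotein convertase (48.9, 64.6 and 54.3 against 19.7, 25.9 and 25.0 CPM, 1.34 ± 0.25), the small GTPase Arl4d (1.19 ± 0.27), Galnt16, which starts O-glycans (1.00 ± 0.15), and the adhesion protein Vtn (1.00 ± 0.18). Their edgeR adjusted p ran from 0.000599 to 0.0234. Aif1l, Galnt16 and Vtn passed without any 1 library. Serpinb1a, Pcsk6 and Arl4d did not pass without VmSC4-derived VmSC4 replicate 2 (edgeR adjusted p = 0.110, 0.0829 and 0.157). Each of these was called in 2 of the 6 fits that leave out a library. The falls included Naaladl2, a peptidase-like gene (14, 13.6 and 11.3 against 35.3, 49.8 and 28.7 CPM, -1.43 ± 0.25, edgeR adjusted p = 0.00301), and the nuclear receptor Nr2c2 (9.77, 13.2 and 15.1 against 33.5, 37.6 and 28.7 CPM, -1.28 ± 0.23, edgeR adjusted p = 0.00303), both called without any 1 library. Pdpr, Lrba, Capn1, Zfp516, Phactr2, Col4a3bp, Tasor2 and Adamts3 fell by 1.08 to 1.38 and did not pass without VmSC4-derived VmSC4 replicate 2. They were called in 0 (Adamts3) to 5 (Lrba) of the 6 fits that leave out a library.

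Several programs gave no call, where 1.77% of all tested genes were called. None of 22 type I interferon-stimulated, 29 interferon gamma-inducible, 28 NF-κB, IL-6 and acute phase, 14 retinoid, 9 Notch, 25 HOX and positional or 14 myofibroblast and contractile genes passed in edgeR. In edgeR 2262 of all 13947 tested genes had an unadjusted p under 0.05. The lists held, in that order, 2, 5, 6, 2, 2, 3 and 3 such genes. DESeq2 called 2 interferon gamma-inducible genes higher and 1 Notch gene lower and no gene of the other 5 lists. Of 28 immediate early and dissociation stress genes 1 was called, the heat shock gene Hspa1b, which fell (2.64, 3.51 and 3.03 against 8.83, 13.2 and 7.33 CPM). Hspa1b has a near-identical copy, so its level is uncertain. The list as a whole leaned the other way. Its median was 0.28 against 0.045 over all tested genes. The log2 fold change was positive for 22 of the 28, where 54.96% of all tested genes were higher after transfer. The summed level did not overlap, at 9019 to 9949 CPM in VmSC4-derived VmSC5 and 7419 to 8179 CPM in VmSC4-derived VmSC4. Of 15 genes of F3+ regulatory stromal cells 1 fell, Fmo2 (90.9, 93.1 and 77.3 against 153, 151 and 122 CPM). Of 22 tested proliferation genes 0 were called by edgeR or DESeq2, 6 at an unadjusted p under 0.05, with a list median of 1.00 at low counts: Mki67 had 14, 8 and 17 counts in VmSC4-derived VmSC5 against 2, 3 and 2 in VmSC4-derived VmSC4. The log2 fold change was positive for 18 of the 22, where 54.96% of all tested genes were higher after transfer. The mitotic gene Cdc20, outside this list, was called higher and is given below.

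The falls leaned to long genes. Genes called lower had a median transcript length of 3475 bases and a median span of 81589 bases, those called higher 1988.5 and 19636.5 bases, and all tested genes 2147 and 21455 bases. With genes in 10 bins by transcript length, the bin of longest genes held 53 of the 141 lower calls with a known length and 5 of the 104 higher ones, and its median log2 fold change was -0.18, where the bin around 864 bases had 0.13. Libraries moved with this: genes of the longest bin took 11.7% to 12.2% of counts in VmSC4-derived VmSC5 and 12.5% to 14.2% in VmSC4-derived VmSC4, the highest share in replicate 2. The satellite-like gene Gm10800 took 0.113% to 0.152% against 0.343% to 0.484%, and mitochondrial genes 0.948% to 0.989% against 0.670% to 0.871%. A correction of each library for transcript length, chosen after the data were seen, left 94 higher and 91 lower, and 162 of the 247 calls among them. Among the genes chosen by rule, it ended the calls of Acacb, Adamts3, Aoc3, Ccl11, Col4a5, Col4a6, Efemp2, Fat1, Hspa1b, Hspg2, Mfap5, Phactr2, Sema5a and Tnxb. The part of RNA quality in the falls was not tested.

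**Figure D4:**
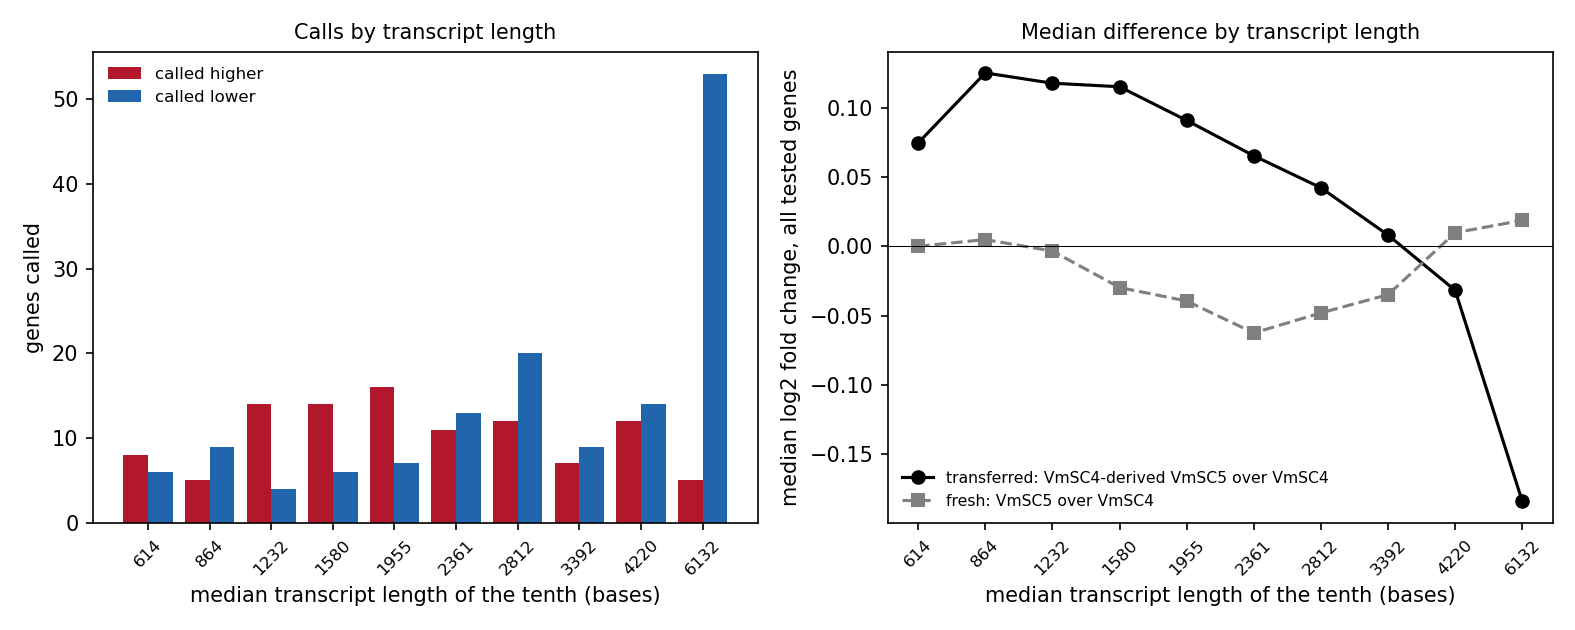
Calls and median differences in 10 bins of genes by transcript length, named on the horizontal axes by their median length in bases. The left panel counts genes called higher (red) and lower (blue) in VmSC4-derived VmSC5; the right panel gives the median log2 fold change of all tested genes in the transferred (black, solid) and the fresh comparison (grey, dashed). The longest bin holds 53 lower calls, and the transferred median there is -0.18 against 0.019 in fresh cells.

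The fresh populations gave a set of libraries that share none with the transferred comparison. Between fresh VmSC5 and fresh VmSC4, sequenced to 8527769 to 12514783 counts, 1034 genes (7.41%) were higher and 1532 (11.0%) lower. The 104 transferred rises went the same way in fresh cells for 84 genes (80.8%), where 48.5% of all tested genes were higher in fresh VmSC5, and 46 were called higher there and 1 lower. The 143 transferred falls went the same way for 61 genes (42.7%), where 51.5% of tested genes were lower in fresh VmSC5, with 24 called lower and 27 called higher. So rises were mostly in the direction that parts fresh VmSC5 from fresh VmSC4, and falls were divided. Read from the other side, 46 (4.45%) of the 1034 fresh rises and 24 (1.57%) of the 1532 fresh falls were called in the same direction after transfer. Of all tested genes, 0.746% were called higher and 1.03% lower after transfer. Fresh rises kept their sign for 60.3% of genes, where 54.96% of all tested genes were higher after transfer. Fresh falls kept theirs for 45.2%, where 44.99% of all tested genes were lower, so fresh falls kept their sign about as often as any tested gene.

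Genes with falls in both comparisons included Trf, the iron carrier transferrin, which was added after its values were seen. It was at 854, 889 and 1060 CPM in VmSC4-derived VmSC5 against 1594, 1574 and 1687 CPM in VmSC4-derived VmSC4 (-0.71 ± 0.11, edgeR adjusted p = 0.000978). Fresh libraries held 5410, 5204 and 4705 CPM in fresh VmSC5 against 17782, 18250 and 14792 CPM in fresh VmSC4 (-1.64 ± 0.12, edgeR adjusted p = 4.79e-10). Col4a6 and C7 fell in both as well (-2.07 ± 0.23 and -1.05 ± 0.23 in fresh cells). Of genes that rose in both, Mgll, Galnt16, Anxa3, Smpd3 and Emilin2 had fresh differences of 1.42, 1.03, 1.18, 0.68 and 1.01, each within 0.58 of its transferred one on the log2 scale. Aif1l and Pcsk6 had larger fresh differences, 2.95 ± 0.31 and 2.75 ± 0.23.

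**Figure D5:**
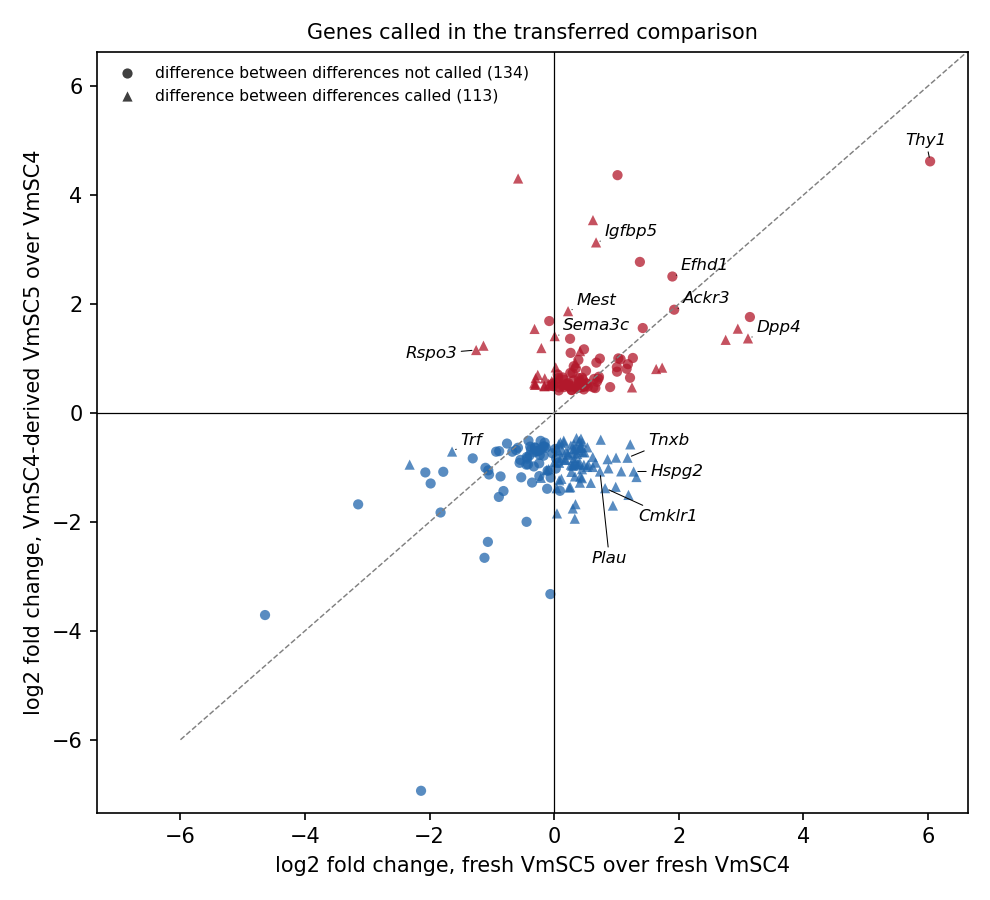
The 247 genes called between VmSC4-derived VmSC5 and VmSC4-derived VmSC4. The vertical axis is their log2 fold change and the horizontal axis that of fresh VmSC5 over fresh VmSC4; the dashed line marks equal values, red points rose and blue points fell after transfer. Triangles are the 113 genes whose 2 differences differed from each other. Ackr3 and Efhd1 lie near the line, Thy1 below it, and Cmklr1, Plau, Hspg2 and Tnxb lie in the lower right.

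The difference between the transferred and the fresh comparison was tested directly. It was called for 1251 genes (8.97%), 756 (5.42%) more positive and 495 (3.55%) more negative after transfer. Among the 104 transferred rises it was called for 31 genes, 25 of them more positive, and among the 143 falls for 82 genes, 80 of them more negative. The transferred difference is itself a part of this test, so genes called for it lean to the same sign by selection. These splits are therefore not a separate result. Fresh libraries were deeper than transferred ones and had a lower mitochondrial share of counts, 0.0722% to 0.167% in fresh VmSC5 and 0.304% to 0.423% in fresh VmSC4, and the part of these in the result was not tested.

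Of the 10 genes with the smallest adjusted p in that test, Igf1, Lpar4, Sat1, Matn2 and Ugt1a7c were lower in fresh VmSC5 than in fresh VmSC4. After transfer they were not called in the fit of 14 libraries. Of 15 alternatives, 3 called Igf1 lower, 3 called Sat1 higher and 5 called Matn2 higher after transfer. Lpar4 and Ugt1a7c were called in 0. Igf1 had a fresh difference of -2.13 ± 0.13 and a transferred one of -0.27 ± 0.13, 1.86 ± 0.18 apart (edgeR adjusted p = 2.44e-06). The wide gap of the fresh populations was thus narrower after transfer, with both groups near the level of fresh VmSC4. Lpar4, a lysophosphatidic acid receptor, was at 26.2, 29.1 and 31.5 CPM in VmSC4-derived VmSC5 against 24.5, 18.3 and 29.7 CPM in VmSC4-derived VmSC4. Fresh VmSC5 had 6.59, 4.15 and 5.28 CPM against 23.7, 22.8 and 26 CPM in fresh VmSC4, and the differences lay 2.39 ± 0.30 apart (edgeR adjusted p = 4.03e-05). Sat1, which acetylates polyamines, and Matn2, a matrix adaptor, behaved alike, with fresh differences of -1.12 ± 0.12 and -0.85 ± 0.11, transferred ones of 0.37 ± 0.12 and 0.36 ± 0.11, and gaps of 1.5 and 1.21. Ugt1a7c, a glucuronosyltransferase whose exons are shared with its neighbours, had -1.44 ± 0.13 in fresh and 0.03 ± 0.13 in transferred cells.

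The other 5 were higher in fresh VmSC5, and all but Plekha6 were called lower in VmSC4-derived VmSC5. The pseudogene CT010467.2 was at 18.8, 18.4 and 17.6 against 54.2, 93.5 and 47.0 CPM after transfer (-1.70 ± 0.22, edgeR adjusted p = 0.000253) and at 138, 186 and 161 against 73.3, 107 and 88.7 CPM in fresh cells, -2.64 ± 0.29 apart (edgeR adjusted p = 3.27e-05). Thsd7a, a membrane thrombospondin-domain protein, was at 77.1, 64.4 and 58.2 against 130, 153 and 138 CPM after transfer (-0.99 ± 0.14, edgeR adjusted p = 0.000187) and at 341, 412 and 310 against 249, 241 and 247 CPM in fresh cells (0.62 ± 0.13, edgeR adjusted p = 0.00120). Fat1, a giant cadherin, was at 276, 238 and 234 against 389, 441 and 357 CPM after transfer (-0.58 ± 0.15, edgeR adjusted p = 0.0407) and at 221, 236 and 287 against 85.8, 123 and 132 CPM in fresh cells. Rasgrf1, an activator of RAS, had differences of -1.02 ± 0.19 and 0.87 ± 0.15. Plekha6 was at 12.4, 16.1 and 10.9 against 19.4, 26.4 and 26.8 CPM after transfer, which did not pass, and at 62.1, 81.4 and 80.7 against 13.0, 13.8 and 27.3 CPM in fresh cells (2.14 ± 0.23). Its transferred fall was called in 4 of 15 alternatives. Without VmSC4-derived VmSC4 replicate 2, Thsd7a was called and Fat1 and Rasgrf1 were not (edgeR adjusted p = 0.00255, 0.212 and 0.0503). Over the 6 fits that leave out a library, Fat1 was called in 1 and Rasgrf1 in 5. Corrected for transcript length, the transferred difference of Fat1 was -0.19 (edgeR adjusted p = 0.507). Each of these genes kept its call in the test of the difference in all 18 alternatives.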

How the data were processed

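RNA was measured in sorted stromal cells of mouse visceral fat, and the authors deposited 1 table of raw counts per gene for all samples. Per the submitters' processing notes, STAR 2.7.3a, featureCounts and the mm10 build were used; the annotation release and strand setting are not given in the sources used here. Column names matched sample titles. CPM are counts divided by the library total.

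The 14 libraries of 5 groups were fitted together with edgeR 4.0.16 (R 4.3.3): filterByExpr with a minimum count of 10, TMM scaling and the robust quasi-likelihood test, with Benjamini-Hochberg adjustment over 13947 of 55011 genes and a threshold of 0.05. Standard errors are the log2 fold change over the root of the F statistic. DESeq2 1.42.0, other scaling, filters, groups, a replicate block and leaving out each replicate, those of VmSC5-derived VmSC5 excepted, were alternatives. Corrections for transcript length and gene span were added after the data were seen. Depth ranged from 1967123 to 12514783 counts, and low-count genes carry the widest errors.

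The populations compared and the gene lists were chosen with earlier results of these data known. Named genes were 10 fixed stromal genes, the 15 largest rises and 15 largest falls among called genes with at least 20 CPM in a group and no overlap, called members of 26 lists, and 10 genes leading the test of the difference between comparisons. Other markers and list members given with values, such as Tek, Eln, Mki67, Cxcl12 and Col4a1, are examples that were not chosen by this rule. Further genes added after their values were seen are named as such.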

Additional observations from a re-analysis of the deposited data

Results flagged for a closer look

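For 26 of the 28 genes whose transferred and fresh differences were compared in the text, the difference between VmSC4-derived VmSC5 and VmSC4-derived VmSC4 was not the same as that between fresh VmSC5 and fresh VmSC4, by edgeR's test of the difference itself. The values are the transferred log2 fold change minus the fresh one, and they are given without a cause. It was more positive after transfer for 11 genes: Igfbp5 at 2.46, Rspo3 at 2.41, Lpar4 at 2.39, Igf1 at 1.86, Mest at 1.65, Sat1 at 1.5, Ugt1a7c at 1.47, Sema3c at 1.40, Matn2 at 1.21, Trf at 0.93 and Cd34 at 0.59. It was more negative for 15 genes: Plekha6 at -2.93, the pseudogene CT010467.2 at -2.64, Hspg2 at -2.35, Cmklr1 at -2.20, Tnxb at -2.0, Rasgrf1 at -1.89, Plau at -1.81, Fat1 at -1.80, Dpp4 at -1.74, Thsd7a at -1.61, Col15a1 at -1.58, Aoc3 at -1.52, Hsd11b1 at -1.18, Pi16 at -1.11 and Pdgfra at -0.92.

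Several of these genes were chosen by this same test, and Trf after its values were seen. All but Cd34 and Pi16 passed in all 18 alternatives; Cd34 passed in 10 and Pi16 in 8. Over all tested genes 8.97% were called.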

How the results depend on the processing

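The count of 247 genes called between VmSC4-derived VmSC5 and VmSC4-derived VmSC4 moved to 893 when the 2 groups were fitted alone, 792 with a replicate block added to that fit, 786 with the 3 transferred groups, 482 with DESeq2 and 450 with no low-count filter. With the replicate block in the fit of 14 libraries it was 132, of which 130 were among the 247. The labels do not say whether same-numbered libraries share recipients. Such libraries deviated together with correlations of -0.049, -0.013 and -0.003, which cannot show that they were unpaired. Leaving out 1 library gave 39 to 166 calls. RLE scaling gave 253, and the corrections for transcript length and gene span, added after the data were seen, 185 and 190.

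The 1251 calls for the difference between comparisons ranged from 659 to 1421 when a library was left out, with 659 without VmSC4-derived VmSC4 replicate 2, 731 without replicate 3 of VmSC4-derived VmSC5, 788 without its replicate 2, and 744 without fresh VmSC5 replicate 2. Its other alternatives gave 1041 (replicate block) to 1456 (DESeq2). The fresh comparison gave 1748 to 2750 calls against 2566, with 2595 under the replicate block.

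Among the genes named, signs turned for 4 values, none of them called. Fabp4 was at 0.032 with 2 groups alone and a replicate block, 0.091 with the block, and -0.27 to 0.48 without a library. Pparg ran from -0.63 to 0.045 without a library, with 0.045 without VmSC4-derived VmSC4 replicate 1. Ugt1a7c was at -0.032 with 2 groups alone, -0.026 with the block added, -0.015 with 3 transferred groups, and -0.065 to 0.049 without a library. The Ackr3 difference between comparisons was 0.15 without fresh VmSC4 replicate 2 and ran from -0.28 to 0.15 without a library. The causes were not tested. Progenitor genes called higher numbered 7 to 13 over all 15 alternatives. At 1967123 counts in the shallowest library, genes of a few CPM rest on under 20 counts.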

Other observations

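Ugdh, Uap1 and Gfpt2, which act in the synthesis of UDP-sugars, were also called higher in VmSC4-derived VmSC5, as were 0.746% of all tested genes. They belong to no list and were chosen after their values were seen, so they do not stand for a pathway. Ugdh, which makes UDP-glucuronic acid, was at 445, 371 and 476 CPM in VmSC4-derived VmSC5 against 232, 260 and 274 CPM in VmSC4-derived VmSC4 (log2 fold change 0.83 ± 0.11, edgeR adjusted p = 0.000187). Uap1, which makes UDP-N-acetylglucosamine, was at 168, 173 and 192 against 112, 87.4 and 96.7 CPM (0.92 ± 0.13, edgeR adjusted p = 0.000253), and Gfpt2, which feeds the same pathway, at 627, 653 and 706 against 403, 444 and 389 CPM (0.77 ± 0.12, edgeR adjusted p = 0.000516). All 3 passed without VmSC4-derived VmSC4 replicate 2. VmSC5-derived VmSC5 had 713 and 747 CPM of Ugdh, and fresh VmSC5 and fresh VmSC4 168, 144 and 148 against 161, 164 and 158 CPM.

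Some low-count genes, also chosen after their values were seen, stood far apart. Cdc20, a mitotic activator, had 26, 31 and 29 counts against 2, 2 and 2 (3.54 ± 0.67, edgeR adjusted p = 0.00578), and passed in all 15 alternatives. Ckap2l was also called higher (4.30 ± 1.07, edgeR adjusted p = 0.0375), but in none of the fits that leave out a library. Akr1cl, an aldo-keto reductase, had 0, 0.619 and 0.202 CPM in VmSC4-derived VmSC5 against 2.77, 6.61 and 4.16 CPM in VmSC4-derived VmSC4, and 0.927, 0.532 and 0.117 CPM in fresh VmSC5 against 6.25 to 27.3 CPM in fresh VmSC4.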
